A study of Phaseolus vulgaris and Phaseolus lunatus with 12 samples.

Results

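The infestation effect of the spider mite *Tetranychus urticae* was compared between lima bean (*Phaseolus lunatus*) and common bean (*Phaseolus vulgaris*), using all 12 libraries of the series. The deposited gene tables of the species share no gene IDs, so the comparison was made on protein domain families, which both tables annotate with the same names. Of 610 family names present in both tables, 294 had at least 5 genes that passed a filter on low counts in each table, and these 294 were the members. They hold 6841 tested genes of common bean and 6559 of lima bean. Only the interaction was tested. It is the infested minus control difference of lima bean, less the same difference of common bean, so a positive value means a higher effect in lima bean.

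The 4 groups held 3 libraries each: common bean control, common bean infested, lima bean control and lima bean infested. Common bean was the cultivar California Red Kidney and lima bean the variety Peladilla. Plants of both species were 3 weeks old, and the detached first true leaf was sampled. Infested leaflets carried 50 adult female mites of the London strain, which had been reared on common bean, and were frozen 24 h later with the mite-free controls. All groups, controls included, were therefore detached leaves, and 1 cultivar or variety stands for each species. The labels do not say whether the libraries of a group came from separate plants, so p-values measure only the spread between these libraries, which may be technical.

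Feeding by mites and insects sets off jasmonate signalling in plants. Jasmonate is made from linolenic acid that lipases free from membranes, is joined to the amino acid isoleucine to become active, and leads to the removal of the JAZ repressors, which carry the TIFY (or ZIM) domain. The genes of these repressors are themselves induced by jasmonate, so the repressors return as the response proceeds. Amidohydrolases of the ILR1 type end the signal by splitting the active conjugate, and in *Arabidopsis thaliana* some of them also free auxin from its amino acid conjugates. The same induction is known to lower transcripts of photosynthesis in many species.

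Between 17264823 and 19343807 reads were counted in each common bean library and between 13317991 and 17255676 in each lima bean library. The families fixed as leaf markers held 0 genes in the family column of either table, so leaf identity was read from descriptions. CPM are counts relative to the size of the library, TMM-scaled for the families and their genes but not for the light-harvesting sums. In lima bean, 27 genes described as light-harvesting proteins summed to 60027, 75136 and 69962 CPM in the controls and to 46777, 26878 and 27719 CPM in the infested libraries. The infested lima bean libraries were therefore lower, and library 1 was the nearest to the controls. In common bean, the gene of the photosystem II 10 kDa polypeptide (PHAVU_005G055200g) stood at 2620, 2581 and 3479 CPM in the controls and at 2372, 2407 and 3101 CPM in the infested libraries, with overlapping ranges. The 10 lima bean genes named as leghaemoglobins, which mark nodules, or only as globins reached at most 364 CPM summed in a library.

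The interaction passed in 9 of 294 families (3.06%) with limma and Benjamini-Hochberg adjustment over all families, at an adjusted p below 0.05. The effect was higher in lima bean in 8 families (2.72%) and lower in 1 (0.34%). The 8 were the TIFY domain family, the ILR1-type amidohydrolases, the phosphoinositide phospholipases C, the GHMP kinases, the class 3 lipases, the family 8 glycosyltransferases, the medium subunits of vesicle adaptors and the voltage-gated chloride channels. The 1 that was lower was the ferredoxin domain family. At an unadjusted p below 0.05 there were 50 families, 30 higher and 20 lower in lima bean. The infested shifts of the 3 libraries of one species lay wholly apart from those of the other in all 9 families, as they did in 109 of all 294 (37.1%).

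How many families passed rested on single libraries. Without lima bean infested library 2 or 3 the count was 0, with a smallest adjusted p of 0.0522 and 0.0507 and with 44 and 40 families at an unadjusted p below 0.05. It was 1 without lima bean control library 3, 3 without common bean control library 1, 4 without common bean infested library 2, 5 without common bean control library 3 and 5 without common bean infested library 3. Leaving out lima bean infested library 1 raised it to 16, 12 higher and 4 lower. Lima bean infested library 1 showed the smallest shift of its group in all 9 families. In each of the 12 fits with a library left out, all 9 families kept their sign, and none of the 9 had an adjusted p above 0.116.

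**Figure D1:**
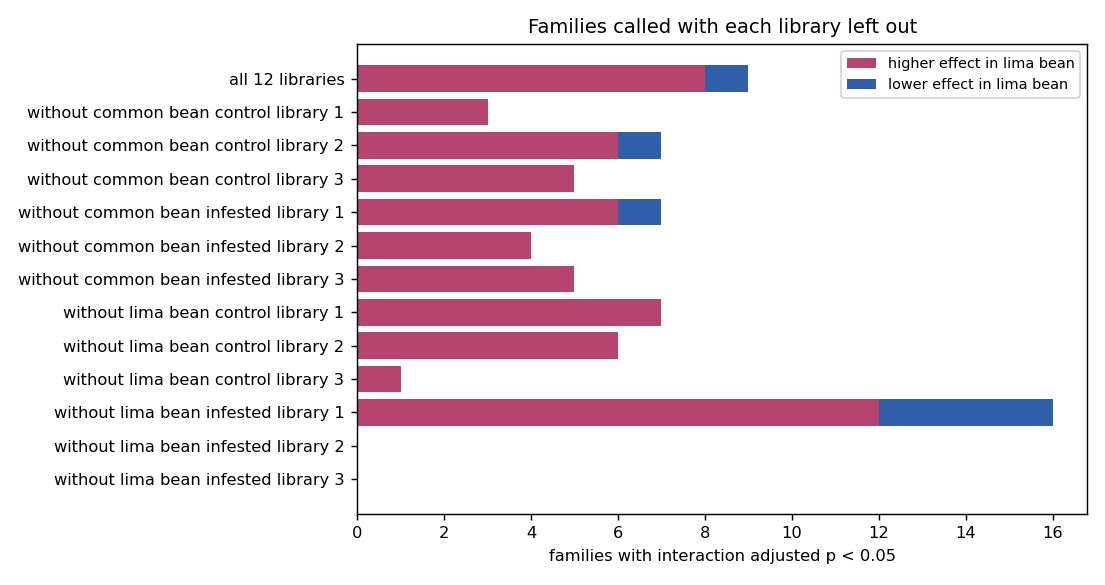
Bars give the number of the 294 families with an interaction at adjusted p below 0.05 (limma) with all 12 libraries and with each library left out, split by direction. The count is 9 with all libraries, 16 without lima bean infested library 1 and 0 without lima bean infested library 2 or 3.

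Over all 294 families the effects of the species leaned the same way. The sign of the effect was the same in 201 families, and the size was larger in lima bean in 202. The median absolute effect was 0.13 in lima bean and 0.07 in common bean on the log2 scale, and the absolute effect exceeded 0.5 in 19 families of lima bean and 8 of common bean. As a description across families, which share the libraries they were measured in, Pearson's r between the effects was 0.686 and Spearman's rho 0.512. The median interaction was 0.02, and 158 of the 294 families had a positive interaction. Chalcone and stilbene synthases had the largest common bean effect (2.00) and lipoxygenases the second largest in both species.

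**Figure D2:**
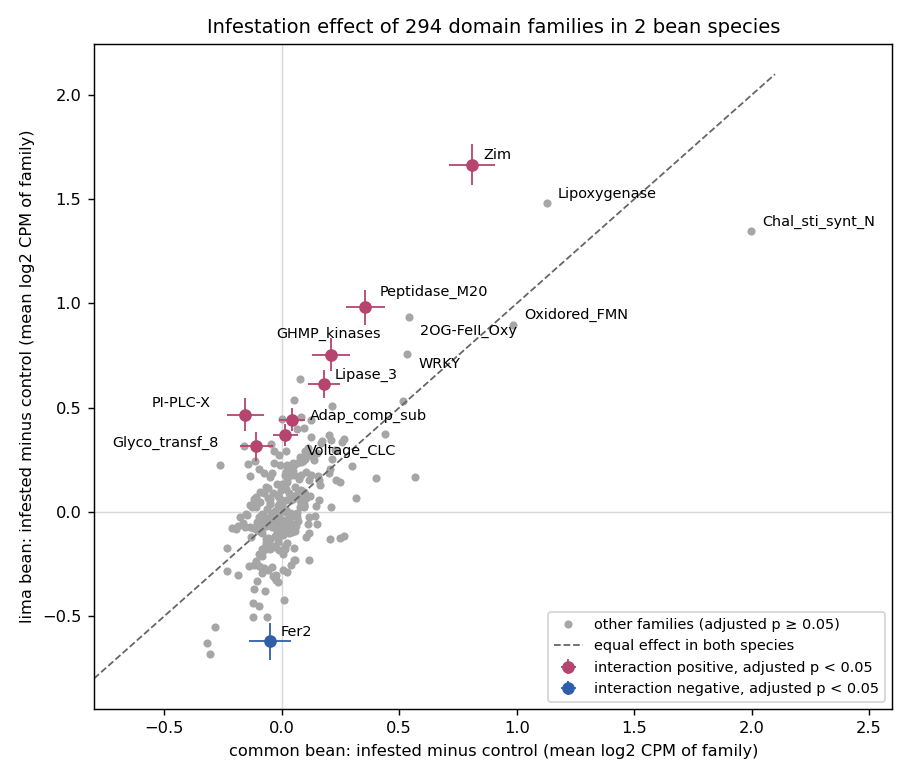
Each point is a domain family, placed by its infested minus control difference in common bean (horizontal) and lima bean (vertical), in mean log2 CPM of its tested genes. Coloured points with bars (standard error) are the 9 families whose interaction passed, and points above the dashed line have a higher effect in lima bean.

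The TIFY domain family (listed as Zim), the JAZ repressors and their relatives, had the largest interaction of the 294 families. The family mean of the infested libraries stood above the control mean by 0.88, 0.63 and 0.93 log2 units in common bean libraries 1, 2 and 3. The same shifts were 1.55, 1.64 and 1.81 in lima bean. Every lima bean shift was larger than every common bean shift, and in both species the infested libraries stood above their controls. The interaction was 0.85 ± 0.14 (SE; limma adjusted p = 0.0171), with a 95% interval of 0.55 to 1.16. With the family summarised by its median it was 1.43 (adjusted p = 0.000485). The call ended without lima bean infested library 2 (0.87, adjusted p = 0.0522) or 3 (0.78, adjusted p = 0.0507).

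Within the TIFY family, 9 of 12 tested lima bean genes rose and 0 fell by edgeR's quasi-likelihood test, where 9.65% of all tested lima bean genes rose and 7.46% fell. In common bean 3 of 12 rose and 0 fell, where 0.935% of all tested genes rose and 0.0413% fell. In each species 11 of the 12 had a log2 fold change above 0, with a median of 1.22 in lima bean and 0.67 in common bean. TIFY 10B of lima bean (Pl10G0000320100.v1, chromosome 10, 50585662 to 50588697) stood at 50.2, 47.6 and 50.4 CPM in the controls and at 333, 400 and 469 CPM in the infested libraries. It rose by 3.02 ± 0.15 (SE) on the log2 scale (edgeR adjusted p = 5.28e-05). TIFY 10A (Pl09G0000318400.v1, chromosome 9, 37245587 to 37248206) rose from 25.2, 27.5 and 25.5 to 155, 201 and 231 CPM, by 2.91 ± 0.16 (adjusted p = 7.09e-05). Both genes encode proteins with the TIFY and the Jas motif, the pair of sequences that defines a JAZ repressor.

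The strongest common bean calls of the TIFY family were smaller in fold. PHAVU_002G002000g (chromosome 2, 206742 to 208210) stood at 13.98, 14.8 and 13.7 CPM in the controls and at 50.8, 51.1 and 43.8 CPM in the infested libraries, a rise of 1.78 ± 0.10 (edgeR adjusted p = 6.63e-05). PHAVU_010G127400g (chromosome 10, 39705449 to 39707862) went from 39.3, 39.6 and 43.8 to 96.8, 83.7 and 91.2 CPM, a rise of 1.15 ± 0.09 (adjusted p = 0.000304). Control and infested libraries did not overlap in either gene, as in 17% of all tested common bean genes. Outside the naming rule and chosen after their values were seen, TIFY 4A (Pl07G0000066500.v1) and TIFY 8 (Pl09G0000075500.v1) of lima bean had log2 fold changes of −0.18 ± 0.17 and 0.09 ± 0.16. The shift in the family mean thus came with members that differed by over 3 log2 units among themselves. A further 5 of the 17 tested lima bean genes described with a TIFY domain are listed under another family and were not counted here.

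The Peptidase_M20 family, metal-dependent amidohydrolases that include the ILR1-type hydrolases, had the second largest positive interaction. Shifts from the control mean were 0.34, 0.39 and 0.33 in the infested common bean libraries and 0.78, 1.03 and 1.13 in lima bean. The species did not overlap, and the smallest lima bean shift was in library 1. The interaction was 0.63 ± 0.12 (limma adjusted p = 0.0207), with a 95% interval of 0.37 to 0.89. It missed the threshold when the family was summarised by its median (0.48, adjusted p = 0.0628). It also missed it without common bean control library 1 (adjusted p = 0.0554), lima bean control library 3 (0.0563) or lima bean infested library 2 (0.0563) or 3 (0.0507).

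Among the 11 tested lima bean members, 4 rose and 0 fell by edgeR, and all 11 had a log2 fold change above 0. In common bean 1 of 14 rose. Over all tested genes 9.65% rose and 7.46% fell in lima bean, and 0.935% rose in common bean. An ILR1-like 1 gene (Pl03G0000064000.v1, chromosome 3, 7174965 to 7177994) stood at 12.9, 17.9 and 15.1 CPM in the controls and at 128, 142 and 190 CPM in the infested libraries of lima bean. Its rise of 3.32 ± 0.19 (adjusted p = 8.31e-05) was the largest of the family. ILR1-like 4 (Pl05G0000275900.v1, chromosome 5, 36362367 to 36365841) rose from 30.6, 36.3 and 45.1 to 142, 147 and 166 CPM, by 2.02 ± 0.15 (adjusted p = 0.000187). ILR1-like 6 (Pl09G0000121600.v1), a pick made after seeing its values, rose by 2.64 ± 0.21 (adjusted p = 0.000215). Allantoate deiminase 2 (Pl09G0000339800.v1), an enzyme of ureide breakdown also chosen after its values were seen, had a log2 fold change of 0.04 ± 0.11.

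In common bean the only called member of the Peptidase_M20 family was PHAVU_005G1617001g (chromosome 5, 38668102 to 38670104). It stood at 15.6, 12.4 and 12.7 CPM in the controls and at 21.2, 31.7 and 25.0 CPM in the infested libraries, a rise of 0.93 ± 0.17 (edgeR adjusted p = 0.0367). Its call ended without any of 5 libraries: control library 1 (adjusted p = 0.0522), 2 (0.166) or 3 (0.126) and infested library 2 (0.139) or 3 (0.0609). Its ID differs by the last digit from that of PHAVU_005G1617000g, which may be a part of the same gene model and had a log2 fold change of 0.64 ± 0.13 (adjusted p = 0.0746). Both models had all infested libraries above all controls.

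**Figure D3:**
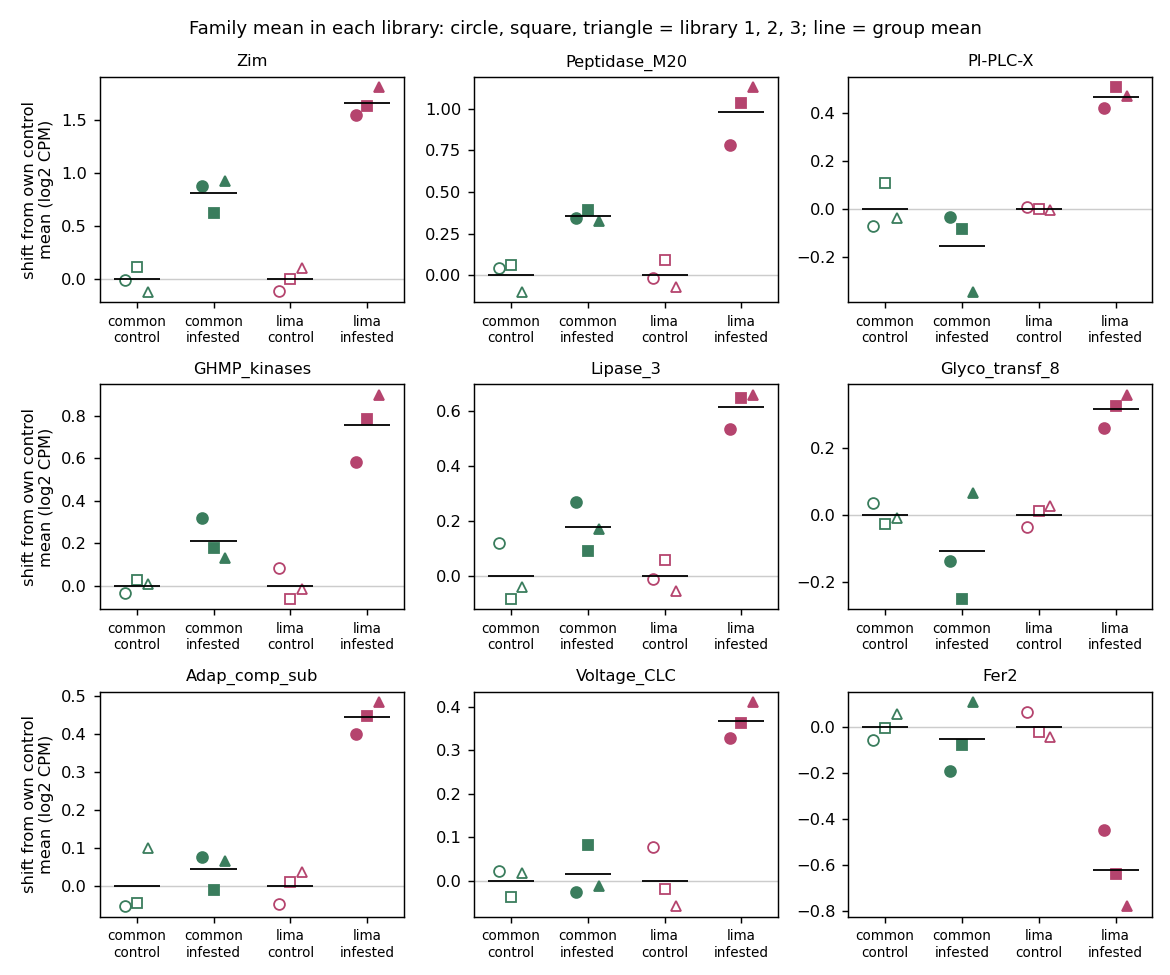
For each of the 9 families that passed, points give every library's family mean as a shift from the control mean of its own species (log2 CPM), and lines give group means of 3 libraries. Infested lima bean libraries lie above infested common bean libraries in 8 panels and below them in the Fer2 panel, where the lima bean shifts were −0.45, −0.64 and −0.78.

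Class 3 lipases (Lipase_3) cut fatty acids from glycerolipids, and the chloroplast phospholipases A1 among them are known in *Arabidopsis* for the step that frees linolenic acid. The family had shifts of 0.27, 0.09 and 0.17 in the infested common bean libraries and of 0.54, 0.65 and 0.66 in lima bean, without overlap. The interaction was 0.44 ± 0.10 (limma adjusted p = 0.0307), with a 95% interval of 0.23 to 0.65. In lima bean 10 of 31 tested genes rose and 0 fell, and in common bean 1 of 28 rose, beside 9.65%, 7.46% and 0.935% over all tested genes. Without the filter on low counts the interaction was 0.21 (adjusted p = 0.38), with library totals as the only scaling 0.40 (adjusted p = 0.0718) and with medians 0.41 (adjusted p = 0.0685). With summed counts it was 0.71 (edgeR adjusted p = 0.00102). Its call also ended in 8 of the 12 fits with a library left out, those without common bean control library 1 or 3 or infested library 2 or 3, or without lima bean control library 1 or 3 or infested library 2 or 3, with adjusted p-values of up to 0.0896.

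EDS1L of lima bean (Pl09G0000261700.v1, chromosome 9, 30406111 to 30409706) belongs to a lipase-like protein group that plants need for signalling by TIR-type immune receptors. It stood at 15.9, 17.2 and 15.2 CPM in the controls and at 53.7, 62.7 and 64.9 CPM in the infested libraries, a rise of 1.91 ± 0.12 (edgeR adjusted p = 9.02e-05). The triacylglycerol lipase OBL1 (Pl02G0000106800.v1, chromosome 2, 8738561 to 8744287), an oil body lipase, rose from 278, 288 and 239 to 566, 615 and 783 CPM, by 1.29 ± 0.16 (adjusted p = 0.00165). Infested and control libraries did not overlap in either gene, as in 37.9% of all tested lima bean genes. Other members were chosen after their values were seen. Phospholipase A1 DAD1 (Pl08G0000052100.v1), whose *Arabidopsis* namesake supplies linolenic acid for jasmonate, had 1 count over the 3 controls and 107 over the 3 infested libraries. It could pass the filter on low counts only through the infested group, so its rise is no separate support for that of the family. Phospholipase A1-Igamma2 (Pl01G0000301200.v1) rose by 1.27 ± 0.17 (adjusted p = 0.00233) and held 83.9% of all counts of the lima bean family.

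The called lipase of common bean, PHAVU_001G156900g (chromosome 1, 41486145 to 41489703), stood at 165, 136 and 81.1 CPM in the controls and at 416, 433 and 289 CPM in the infested libraries. Its rise was 1.58 ± 0.24 (edgeR adjusted p = 0.0181), and the call ended without control library 2 (adjusted p = 0.0913) or infested library 1 (0.0878) or 2 (0.0945). The lowest infested library was still above the highest control.

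Other families of jasmonate synthesis did not pass with the mean over genes, but both of those given here passed with summed counts, in which abundant genes weigh most. Lipoxygenases, which oxygenate the freed fatty acid, had shifts of 1.17, 1.09 and 1.12 in common bean and 1.42, 1.49 and 1.54 in lima bean. These did not overlap, and the interaction was 0.35 ± 0.09 (limma adjusted p = 0.0545). With summed counts it was 0.78 (edgeR adjusted p = 0.00174). The family of 12-oxophytodienoate reductases (Oxidored_FMN) had shifts of 1.05, 0.82 and 1.08 in common bean and 0.61, 0.97 and 1.12 in lima bean, which overlapped. Its interaction was −0.09 ± 0.24 (adjusted p = 0.886), with a 95% interval of −0.60 to 0.43. With summed counts the direction turned, to 1.26 (edgeR adjusted p = 1.34e-05), and 1 gene held 74.8% of the lima bean counts. Of the 4 tested families in the list of oxylipin and jasmonate families, 2 passed and 3 had a positive interaction, beside 158 of all 294. Their median was 0.39, beside 0.02 over all 294. The TIFY family is not in that list, because the tables name it differently from the list.

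GHMP kinases are small-molecule kinases, and the family also holds the decarboxylase that follows them in the mevalonate pathway to sterols and sesquiterpenes. Shifts were 0.32, 0.17 and 0.13 in the infested common bean libraries and 0.58, 0.78 and 0.90 in lima bean. The groups did not overlap, and common bean library 1 was the highest of its group where lima bean library 1 was the lowest. The interaction was 0.55 ± 0.11 (limma adjusted p = 0.0265), with a 95% interval of 0.30 to 0.79. It was 0.51 (adjusted p = 0.0615) with library totals as the only scaling and 0.40 (adjusted p = 0.0649) with medians, and it was 1.28 (edgeR adjusted p = 7.2e-05) with summed counts. Its call ended with a block for replicate number. The call was kept in 3 of the 12 fits with a library left out, those without common bean infested library 1, lima bean control library 1 or lima bean infested library 1. The other fits of that kind gave adjusted p-values of up to 0.0758.

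In lima bean 5 of 10 tested GHMP family genes rose and 0 fell, and in common bean 1 of 10 rose, beside 9.65%, 7.46% and 0.935% over all tested genes. Diphosphomevalonate decarboxylase 2 (Pl07G0000022100.v1, chromosome 7, 1528987 to 1535124) makes isopentenyl diphosphate, the building block of isoprenoids. It stood at 41.0, 38.7 and 38.4 CPM in the controls and at 254, 288 and 422 CPM in the infested libraries, a rise of 3.03 ± 0.20 (edgeR adjusted p = 0.00011). Mevalonate kinase (Pl06G0000207100.v1, chromosome 6, 25632992 to 25636187), the first kinase of the pathway, rose from 34.0, 32.7 and 36.8 to 79.2, 83.5 and 96.1 CPM, by 1.32 ± 0.11 (adjusted p = 0.000257). Phosphomevalonate kinase (Pl09G0000136000.v1), which acts between them and was picked with its values in view, rose by 1.02 ± 0.12 (adjusted p = 0.00114). The pathway's kinases and decarboxylase were thus all among the called genes, beside a fucokinase and a galactokinase of sugar salvage.

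The lone common bean call among GHMP family genes was PHAVU_007G021200g (chromosome 7, 1481172 to 1487153), at 30.5, 40.2 and 41.3 CPM in the controls and 63.4, 57.8 and 60.9 CPM in the infested libraries. Its rise was 0.70 ± 0.12 (edgeR adjusted p = 0.0299). The call ended without control library 2 (adjusted p = 0.083) or infested library 1 (0.121), 2 (0.0984) or 3 (0.057). The deposited table names it a hypothetical protein.

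Phosphoinositide phospholipases C (PI-PLC-X) split a membrane phosphoinositide into diacylglycerol and a soluble inositol phosphate, both of which feed into signalling. The shifts were −0.04, −0.08 and −0.35 in the infested common bean libraries and 0.42, 0.51 and 0.47 in lima bean. The species lay on opposite sides of their controls. The interaction was 0.62 ± 0.11 (limma adjusted p = 0.0183), with a 95% interval of 0.38 to 0.86. Only 5 common bean genes and 7 lima bean genes were tested in the family, 0 of the 5 were called, and 1 of the 7 was. Of all tested genes, 0.976% were called in common bean and 17.1% in lima bean, so these counts are near the background.

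The called gene was a phospholipase C 6 (Pl08G0000363400.v1, chromosome 8, 51098002 to 51102688), at 0.343, 0.280 and 0.579 CPM in the controls and 4.74, 5.52 and 5.63 CPM in the infested libraries. It rose by 3.71 ± 0.34 (edgeR adjusted p = 0.000401), and the other 6 lima bean members had log2 fold changes from −0.55 to 0.30. With 18 counts over the controls and 220 over the infested libraries, the gene could pass the filter on low counts only through the infested group. Its part in the family value thus depended on the rise itself. The gene is at a low level. It lies between 2 other phospholipase C genes with consecutive IDs (Pl08G0000363300.v1 and Pl08G0000363500.v1), so reads shared between near copies could have been split. With the family summarised by its median the interaction reversed to −0.07 (adjusted p = 0.93), and with summed counts it was −0.02 (adjusted p = 0.946). Its call also ended without the filter on low counts (adjusted p = 0.068) and without lima bean control library 3 (0.0504) or lima bean infested library 2 (0.0563) or 3 (0.0507).

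**Figure D4:**
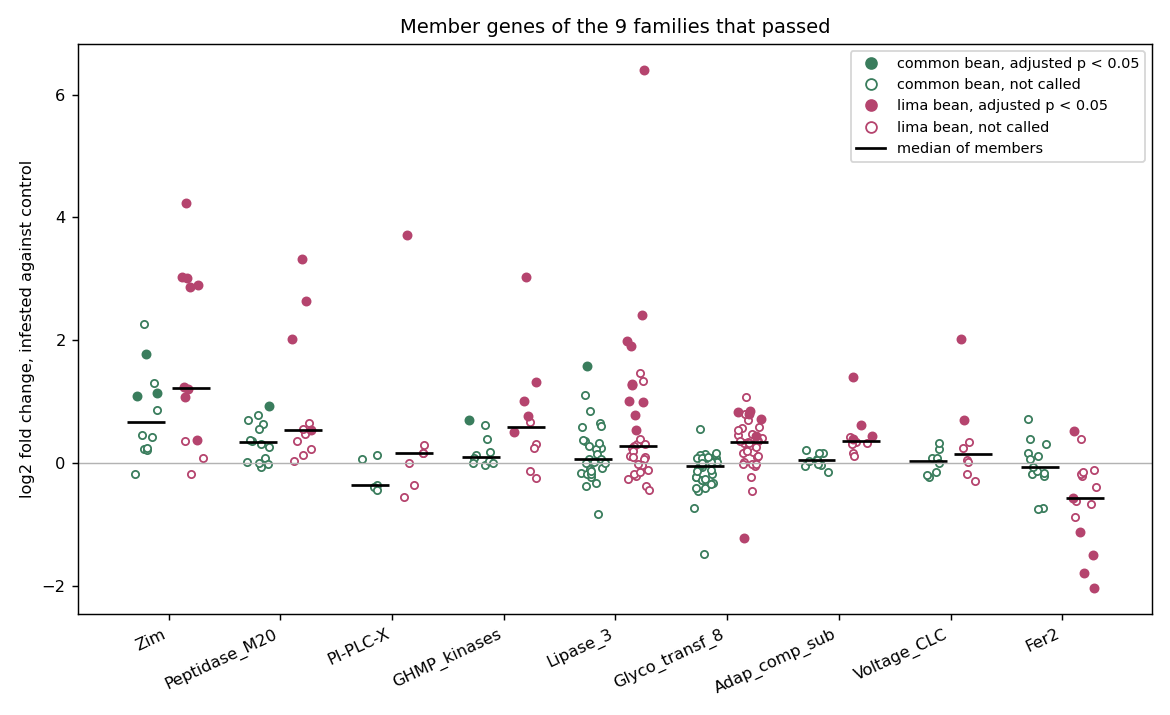
Points give the log2 fold change (infested against control, edgeR) of every tested gene of the 9 families in each species, filled where the adjusted p was below 0.05, with the median as a line. The 1 filled point of the PI-PLC-X family stands at 3.71, apart from the other members.

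Family 8 glycosyltransferases (Glyco_transf_8) include the galacturonosyltransferases that build pectin, a main polymer of the primary cell wall. Shifts were −0.14, −0.25 and 0.06 in the infested common bean libraries and 0.26, 0.32 and 0.36 in lima bean, which did not overlap. The interaction was 0.42 ± 0.10 (limma adjusted p = 0.0419), with a 95% interval of 0.20 to 0.64, and it was the nearest to the threshold of the 9. In lima bean 28 of 35 genes had a log2 fold change above 0, where the median over all tested lima bean genes was −0.01. Of these 35, 5 rose and 1 fell, beside 9.65% and 7.46% over all tested lima bean genes. Both directions together are near the 17.1% called over all of them. In common bean 15 of 35 were above 0 and 0 were called, beside 0.976% over all tested genes. The call ended under upper-quartile scaling (adjusted p = 0.0595), library totals (0.0692), no filter (0.129), a prior count of 0.5 (0.0644) and medians (0.227). It also ended with a block for replicate number. It was kept in 2 of the 12 fits with a library left out, those without common bean infested library 3 or lima bean infested library 1.

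The galacturonosyltransferase-like 7 gene of lima bean (Pl07G0000252300.v1, chromosome 7, 32410526 to 32414141) stood at 22.4, 19.7 and 24.7 CPM in the controls and at 41.7, 38.3 and 40.9 CPM in the infested libraries. It rose by 0.86 ± 0.12 (edgeR adjusted p = 0.00257). Galacturonosyltransferase 14 (Pl08G0000037900.v1, chromosome 8, 2945950 to 2953934) rose by 0.83 ± 0.11 (adjusted p = 0.0026), from 15.8, 16.6 and 15.4 to 28.4, 26.1 and 30.4 CPM. The called member that fell does not act on pectin. It is galactinol synthase 2 (Pl07G0000275100.v1), which starts the synthesis of raffinose sugars and was chosen after its values were seen, with a change of −1.22 ± 0.33 (adjusted p = 0.0373).

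The medium subunits of adaptor complexes (Adap_comp_sub) select cargo for vesicles. Their shifts were small in common bean, at 0.08, −0.01 and 0.07, and 0.40, 0.45 and 0.48 in lima bean. Lima bean libraries varied little around their mean and stood apart from common bean. The interaction was 0.40 ± 0.08 (limma adjusted p = 0.0212), with a 95% interval of 0.23 to 0.57. All 11 tested lima bean genes had a log2 fold change above 0, from 0.12 to 1.40, and 4 of them rose, beside 9.65% over all tested lima bean genes. In common bean 0 of 10 were called, beside 0.976% over all tested genes. With medians the interaction was 0.26 (adjusted p = 0.367), and the call ended without common bean infested library 2 (adjusted p = 0.0669), lima bean control library 3 (0.0504) or lima bean infested library 2 (0.0563) or 3 (0.062).

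The largest adaptor change was in a gene described as the mu subunit of the plasma membrane complex AP-2 (Pl02G0000121100.v1, chromosome 2, 10292312 to 10295382). Its level was 2.06, 3.29 and 3.18 CPM in the controls and 7.45, 8.17 and 6.74 CPM in the infested libraries, a rise of 1.40 ± 0.25 (edgeR adjusted p = 0.0083). Of the 7 tested families in the list for vesicle traffic, 1 passed and 6 had a positive interaction, beside 158 of all 294. Their median was 0.13, beside 0.02 over all 294. Small GTPases of the Ras family, which direct vesicles, had an interaction of 0.17 ± 0.08 (limma adjusted p = 0.324).

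Voltage-gated chloride channels and exchangers (Voltage_CLC) move chloride and nitrate, largely across internal membranes. Shifts were −0.03, 0.08 and −0.01 in the infested common bean libraries and 0.33, 0.36 and 0.41 in lima bean, again without overlap. The interaction was 0.35 ± 0.07 (limma adjusted p = 0.0276), with a 95% interval of 0.19 to 0.52, and it was the smallest in size of the 9. A CLC-b gene (Pl04G0000061600.v1, chromosome 4, 6074994 to 6079974) stood at 5.995, 4.55 and 3.69 CPM in the controls and at 13.7, 18.9 and 25.4 CPM in the infested libraries, a rise of 2.02 ± 0.27 (edgeR adjusted p = 0.00244). It was 1 of 2 called genes of 8 in lima bean, and 0 of 8 were called in common bean, which is near the 17.1% and 0.976% called over all tested genes. With summed counts the interaction was 0.17 (adjusted p = 0.258) and with library totals 0.31 (adjusted p = 0.0718). The call also ended with a block for replicate number. It was kept in 4 of the 12 fits with a library left out, those without common bean control library 2, common bean infested library 2, lima bean control library 1 or lima bean infested library 1.

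Calcium acts as an early signal in wounded leaves, and 0 of the 4 tested families in the calcium signalling list passed. Sodium/calcium exchangers (Na_Ca_ex) had shifts of 0.17, −0.16 and 0.15 in the infested common bean libraries and 0.52, 0.42 and 0.68 in lima bean. Their interaction was 0.49 ± 0.15 (limma adjusted p = 0.0973), and 0.03 (edgeR adjusted p = 0.913) with summed counts. A positive interaction was found in 3 of the 4, with a median of 0.25, beside 158 of all 294 families and a median of 0.02.

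The ferredoxin domain family (Fer2), which holds chloroplast ferredoxins that pass electrons on from photosystem I, was the only family called with a lower effect in lima bean. Shifts were −0.19, −0.08 and 0.11 in the infested common bean libraries and −0.45, −0.64 and −0.78 in lima bean. Each lima bean library lay below each common bean library, and library 1 of lima bean had the smallest shift. The interaction was −0.57 ± 0.13 (limma adjusted p = 0.0307), with a 95% interval of −0.85 to −0.29. In lima bean 5 of 15 genes fell and 1 rose, and in common bean 0 of 13 were called, beside 7.46% falling and 9.65% rising over all tested lima bean genes and 0.976% called in common bean. With medians the interaction was −0.41 (adjusted p = 0.376) and with summed counts −0.67 (edgeR adjusted p = 0.123), while DESeq2 on summed counts kept the call. The call was kept in 2 of the 12 fits with a library left out, those without common bean infested library 1 or lima bean infested library 1.

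The falls in the ferredoxin family moved beside those of the light-harvesting genes of lima bean given above, whose part in the result was not tested. A photosynthetic NDH subunit B 3 gene (Pl05G0000280600.v1, chromosome 5, 36720290 to 36722478), of the complex for cyclic electron flow, stood at 26.9, 24.5 and 37.3 CPM in the controls and at 13.7, 6.58 and 5.26 CPM in the infested libraries. It changed by −1.80 ± 0.34 (edgeR adjusted p = 0.00984). Ferredoxin-1 (Pl06G0000338300.v1, chromosome 6, 36222042 to 36222479) went from 9.25, 16.4 and 9.77 to 4.503, 2.53 and 1.63 CPM, a change of −2.03 ± 0.38 (adjusted p = 0.0101). It is 1 of 4 ferredoxin-1 genes with consecutive IDs, whose reads could have been split between copies. Chosen after its values were seen, the most abundant of the 4 (Pl06G0000338200.v1) stood at 1145, 774 and 1374 CPM in the controls and at 836, 560 and 401 CPM in the infested libraries, and it did not pass (−0.87 ± 0.29, adjusted p = 0.0781). Ferredoxin-3 (Pl07G0000023200.v1), a form known from non-green tissue in other plants and also picked with its values in view, rose by 0.52 ± 0.12 (adjusted p = 0.0241).

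Of the 3 tested families in the list for photosynthesis and plastid metabolism, 1 passed and all 3 had a negative interaction, with a median of −0.31. Over all 294 families 158 interactions were positive. FKBP-type isomerases, many of which sit in the thylakoid lumen, had an interaction of −0.31 ± 0.10 (limma adjusted p = 0.0939), and −0.03 (edgeR adjusted p = 0.873) with summed counts. The 3 tested families of the clock and light list, a check of collection time, all had a negative interaction and 0 passed: CCT at −0.21 (adjusted p = 0.639), response regulators at −0.17 (0.338) and B-box zinc fingers at −0.14 (0.556). With summed counts they were −0.48, −0.26 and −0.36, with edgeR adjusted p-values of 0.121, 0.139 and 0.0695, and the B-box family passed in DESeq2 (adjusted p = 0.0344). Whether collection time had a part in these values was not tested.

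**Figure D5:**
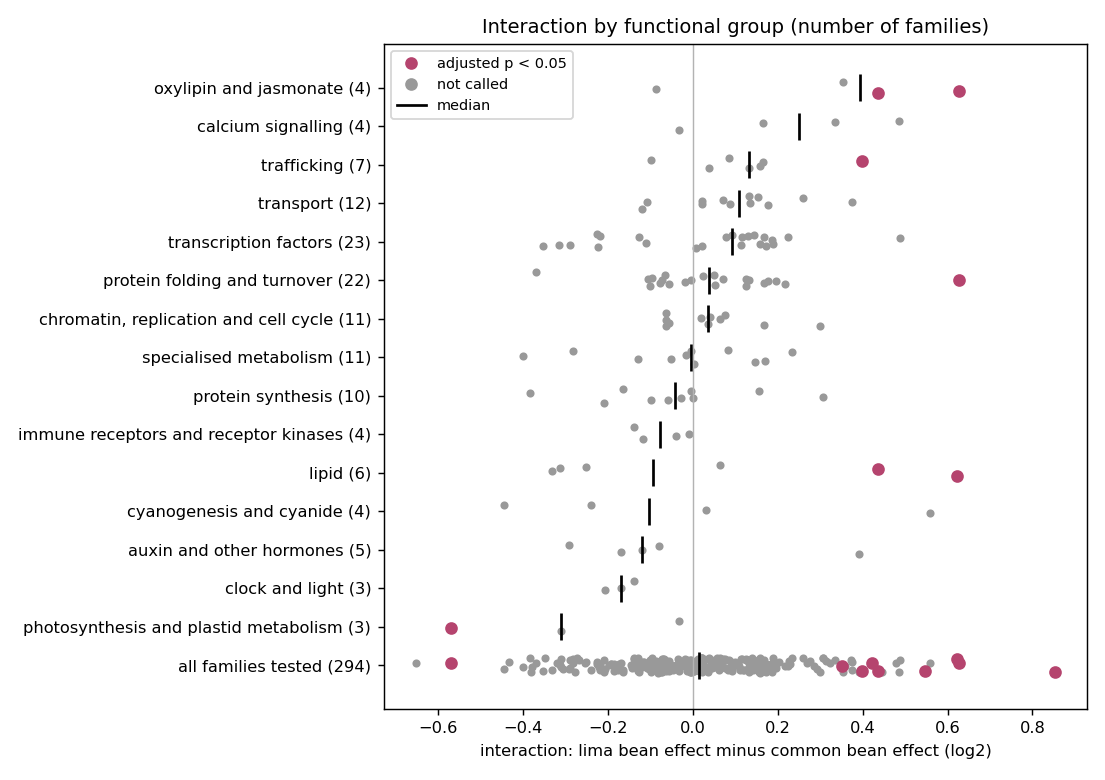
Points give the interaction (lima bean effect minus common bean effect, log2) of each tested family within lists of related families and, in the bottom row, over all 294, with medians as lines and families that passed enlarged. A family can stand in more than 1 list; the medians run from 0.39 for oxylipin and jasmonate families to −0.31 for photosynthesis and plastid metabolism.

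The next families with a lower effect in lima bean did not pass. Short-chain dehydrogenases (adh_short) had an interaction of −0.28 ± 0.08 (limma adjusted p = 0.0636), with shifts of −0.23, −0.32 and −0.28 in lima bean and −0.05, −0.00 and 0.07 in common bean. In that family 6 lima bean genes fell and 1 rose of 40, beside 7.46% falling and 9.65% rising over all tested lima bean genes. Both directions together are near the 17.1% called over all of them. In common bean 0 of 46 were called, beside 0.976% over all tested genes. Carbonyl reductase 2 (Pl07G0000364000.v1, chromosome 7, 44207999 to 44211751) rose by 2.32 ± 0.21 (edgeR adjusted p = 0.000384), against the direction of its family, while a tropinone reductase homolog (Pl08G0000124700.v1, chromosome 8, 11757589 to 11759649) changed by −1.18 ± 0.28 (adjusted p = 0.0249). The tropinone reductase call ended with a block for replicate number, and without lima bean control library 3 (adjusted p = 0.0683) or infested library 2 (0.0834) or 3 (0.104). The adh_short interaction passed under upper-quartile scaling (−0.32, adjusted p = 0.0454) and library totals (−0.32, adjusted p = 0.0418), with a minimum of 10 genes per family (−0.28, adjusted p = 0.0342) and with summed counts (−0.53, edgeR adjusted p = 0.0396).

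HIT domain proteins, which bind nucleotides, had an interaction of −0.43 ± 0.12 (limma adjusted p = 0.0636). Adenylylsulfatase HINT3 (Pl08G0000159200.v1) changed by −1.19 ± 0.21 in lima bean (edgeR adjusted p = 0.00734), from 16.4, 16.7 and 11.5 to 7.45, 6.78 and 5.41 CPM. A 14 kDa zinc-binding protein of the family (Pl09G0000333700.v1) changed by −0.38 ± 0.09 (adjusted p = 0.0267). That call ended with a block for replicate number, and without lima bean control library 2 (adjusted p = 0.0656) or 3 (0.0785) or any infested library (0.0518, 0.0953 and 0.103 for libraries 1, 2 and 3). The family itself passed without lima bean infested library 1 (−0.32, adjusted p = 0.0457), with a prior count of 5 (−0.37, adjusted p = 0.0421) and with summed counts (−0.24, edgeR adjusted p = 0.0403). With medians it was −0.23 (adjusted p = 0.399).

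Alpha/beta hydrolases (Abhydrolase_1), a family of varied esterases, had an interaction of −0.33 ± 0.09 (limma adjusted p = 0.0636), and the common bean effect of 0.20 took a larger part in it than the lima bean effect of −0.13. In common bean PHAVU_006G088500g (chromosome 6, 20700709 to 20702626) rose by 0.75 ± 0.09 (edgeR adjusted p = 0.00352), from 42.4, 42.6 and 48.1 to 71.3, 75.5 and 77.2 CPM. In lima bean Pl01G0000423600.v1 changed by −0.75 ± 0.15 (adjusted p = 0.0119) and Pl10G0000022100.v1 by −0.79 ± 0.16 (adjusted p = 0.0142). Both lima bean calls ended without infested library 2 (adjusted p = 0.0571 and 0.0651) or 3 (0.0559 and 0.0635). The second also ended without control library 3 (0.0504) and with a block for replicate number. The family passed without common bean control library 2 (−0.41, adjusted p = 0.0315), with a minimum of 10 genes per family (−0.33, adjusted p = 0.0342) and with summed counts (−0.29, edgeR adjusted p = 0.0345).

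Genes listed under the helicase C-terminal domain (Helicase_C) had an interaction of −0.38 ± 0.11 (limma adjusted p = 0.0828). The family column gives 1 domain per gene, and it lists 9 of the 123 tested lima bean genes whose descriptions hold this domain, so the value speaks of those 9. The chloroplast helicase At3g02060 homolog (Pl01G0000205500.v1) changed by −0.74 ± 0.14 in lima bean (edgeR adjusted p = 0.0103), a call that ended with a block for replicate number (adjusted p = 0.0539). The RNA helicase 57 (Pl01G0000323200.v1) changed by −1.37 ± 0.32 (adjusted p = 0.0236). The latter call ended with that block, and without lima bean control library 1 (adjusted p = 0.0645) or infested library 2 (0.0835) or 3 (0.102). Without lima bean infested library 1 the family passed (−0.47, adjusted p = 0.0225), and with medians its interaction was −0.25 (adjusted p = 0.367).

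The title of the series sets cyanogenic against non-cyanogenic legumes, and lima bean is known for cyanogenic glucosides, which release cyanide when a glucosidase reaches them. The 4 families that hold enzymes of cyanide release and removal, among many others, did not pass with the mean over genes. Family 1 glucosidases (Glyco_hydro_1) had an interaction of 0.56 ± 0.26 (limma adjusted p = 0.297), with an interval of −0.01 to 1.12. Rhodaneses, sulfurtransferases that can detoxify cyanide, had −0.44 ± 0.14 (adjusted p = 0.108), the family of cyanoalanine synthases (PALP) −0.24 ± 0.11 (adjusted p = 0.273) and nitrilases (CN_hydrolase) 0.03 ± 0.07 (adjusted p = 0.848). The rhodanese shifts were −0.36, −0.55 and −0.61 in lima bean and −0.23, −0.07 and 0.12 in common bean, without overlap. With summed counts the rhodanese family passed (−0.60, edgeR adjusted p = 0.0183), and PALP turned to 0.04 (adjusted p = 0.831) and CN_hydrolase to −0.04 (adjusted p = 0.793).

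Families with an effect of similar size in both species have no test of likeness, and their intervals differed in width. WRKY transcription factors, regulators of defence genes, had shifts of 0.55, 0.35 and 0.70 in common bean and 0.60, 0.89 and 0.79 in lima bean, which overlapped. The interaction was 0.22 ± 0.25 (limma adjusted p = 0.66), with a 95% interval of −0.32 to 0.77. NB-ARC immune receptors, with 145 tested genes in common bean and 94 in lima bean, had an interaction of −0.01 ± 0.11 (adjusted p = 0.982), with an interval of −0.25 to 0.24. Of 23 tested transcription factor families, 0 passed and 15 had a positive interaction, beside 158 of all 294. Their median was 0.09, beside 0.02 over all 294. Chalcone and stilbene synthases, which start flavonoid synthesis, had the widest spread of those named here, with an interaction of −0.65 ± 0.98 (adjusted p = 0.763) and an interval of −2.79 to 1.48. With summed counts it turned to 0.10 (edgeR adjusted p = 0.926), and NB-ARC to 0.08 (adjusted p = 0.705).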

How the data were processed

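RNA sequencing counts from 12 leaf libraries were analysed. The authors deposited unscaled counts of reads per gene, with 1 table for each species. HISAT2, featureCounts and DESeq2 are named in the submitters' processing notes, without versions. Genome builds and the handling of strand and of reads matching several places are not given in these sources. Coordinates are as the tables give them. The tables' IDs matched 0 entries of the reference gene table, so names and domain families come from the tables.

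In R 4.3.3, counts of each species were filtered with filterByExpr and TMM-scaled, and log2 CPM used a prior count of 2. A family's value was the mean log2 CPM of its tested genes per library. The interaction was fitted with limma 3.58.1 over all 12 libraries, with Benjamini-Hochberg adjustment over 294 families. Infested and control genes were compared in each species with edgeR 4.0.16 (quasi-likelihood test, adjusted over all genes tested). Standard errors of gene fold changes are the fold change divided by the root of its F statistic. Log2 differences between species refer to effects, never to levels.

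Families named were those that passed, plus the smallest p-values up to 5 in a direction with fewer; genes named were the called members with the smallest p, at most 2 per species in the 6 families of largest interaction in a direction and 1 elsewhere. The families, lists and tests were chosen with earlier results of these data known. Fits were tested on simulated data. DESeq2 1.42.0, other scalings, filters, prior counts, family summaries, a replicate block and leaving out each library were alternatives; those at gene level other than DESeq2 were chosen after seeing the data. Replicate numbers were not used as pairs. No 2 libraries differed as little as copies would.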

Additional observations from a re-analysis of the deposited data

Results flagged for a closer look

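In 9 families the infestation effect differed between the species by the limma test of the difference itself (adjusted over 294 families), with 3 libraries in each of the 4 groups. The difference, lima bean effect minus common bean effect in mean log2 CPM, was 0.85 for Zim (TIFY repressors), 0.63 for Peptidase_M20 (ILR1-type hydrolases) and 0.62 for PI-PLC-X (phospholipases C). It was 0.55 for GHMP_kinases (mevalonate kinases among others), 0.44 for Lipase_3 (class 3 lipases) and 0.42 for Glyco_transf_8 (galacturonosyltransferases). Adap_comp_sub (adaptor subunits) differed by 0.40, Voltage_CLC (chloride channels) by 0.35 and Fer2 (ferredoxins) by −0.57.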

How the results depend on the processing

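All 9 families kept their sign under every alternative run that included them, with the exception of PI-PLC-X. Its value was −0.071 with family medians, −0.018 with summed counts in edgeR and −0.023 in DESeq2 (adjusted p = 0.945). Families called numbered 14 with a prior count of 5 (12 higher, 2 lower), and 43 and 69 with summed counts in edgeR and DESeq2 (31 and 42 higher, 12 and 27 lower), in which abundant genes weigh most. With medians 13 were called, 9 higher and 4 lower, of which 2 were among the 9. With a minimum of 10 genes per family also 13 were called, 10 higher and 3 lower, of which 7 were among the 9. PI-PLC-X and Voltage_CLC had too few genes to be fitted there. Library totals gave 6 (4 higher, 2 lower), no filter 7 (5 higher, 2 lower) and upper-quartile scaling 9 (7 higher, 2 lower). Median-ratio scaling, centring and 1 variance per group each gave 9, with all 9 families among them. Leaving out 1 library gave 0 to 16 in all, 0 to 12 higher and 0 to 4 lower.

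The labels do not say whether a replicate number marks a pair, and the correlations of deviations between controls and infested libraries do not settle it. Same-numbered values were 0.138, 0.0852 and 0.206 in common bean, all above those of different numbers (−0.202 to 0.0781). In lima bean they were −0.220, 0.0487 and −0.184, within the range of different numbers (−0.225 to 0.358) for each. With the replicate block 7 families were called, 5 higher and 2 lower, 6 of them among the 9. GHMP_kinases, Glyco_transf_8 and Voltage_CLC lost their calls.

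Genes called higher in common bean numbered 181, with 396 by DESeq2, 405 with the block and 91 to 158 with a library left out. Those called lower numbered 8, with 13 without the filter, 69 by DESeq2, 134 with the block and 0 to 14 with a library left out. In lima bean 1788 were higher and 1382 lower, 1046 and 571 with the block, and 900 to 1671 and 417 to 1533 with a library left out.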

Other observations

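Summing the counts of a family instead of averaging its genes' log2 CPM gives weight to abundant genes, and it named other families. These were chosen after their values were seen. Formins (FH2), which nucleate actin filaments, had summed levels of 187 ± 11.7 CPM in control and 169 ± 8.44 CPM in infested common bean (SD, n = 3), and of 239 ± 17.4 and 563 ± 12.96 CPM in lima bean. The interaction was 1.38 ± 0.09 (edgeR adjusted p = 1.26e-06), beside an adjusted p of 0.159 for the mean of genes, and 1 gene held 51.0% of the lima bean counts. The 12-oxophytodienoate reductase family (Oxidored_FMN) had 300.4 ± 12.7 and 325 ± 26.8 CPM in common bean and 116 ± 5.08 and 300.3 ± 28.1 CPM in lima bean. Its summed interaction was 1.26 ± 0.11 (adjusted p = 1.34e-05), where the mean over genes gave −0.09 (adjusted p = 0.886), and 1 gene held 74.8% of the lima bean counts.

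Summed UDP-glycosyltransferases (UDPGT), which attach sugars to small molecules, went from 2989 ± 29.3 to 3276 ± 183 CPM in common bean and from 3546 ± 462 to 7926 ± 526 CPM in lima bean (interaction 1.03 ± 0.12, edgeR adjusted p = 0.000112). Cytochromes P450 (p450) went from 4896 ± 59.9 to 5613 ± 288 CPM and from 5320 ± 194 to 8921 ± 570 CPM (0.55 ± 0.08, adjusted p = 0.000461). With the mean over genes neither UDPGT nor p450 passed. Both stand in the list for specialised metabolism, where 0 of 11 tested families passed and the highest interaction was 0.23. Lipoxygenases went from 6593 ± 613 to 12253 ± 880 CPM in common bean and from 22437 ± 2583 to 71389 ± 4711 CPM in lima bean (0.78 ± 0.13, adjusted p = 0.00174). Levels of the species are not comparable, since each table was scaled alone.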
